A study of Homo sapiens with 12 samples.

Results

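The microRNA cluster of miR-23b, miR-27b and miR-24-1 on human chromosome 9 was followed through 5 mature miRNAs, which were taken by name from a table of 2588 human miRNAs: miR-23b-3p, miR-23b-5p, miR-27b-3p, miR-27b-5p and miR-24-1-5p. All 5 had at least 1 count in every library, and all 5 passed the filter on low counts in every comparison of levels, though miR-23b-5p and miR-24-1-5p, with 1 or 2 counts in each knockdown EV library, passed it in EVs only through the other groups. Small RNA had been sequenced from MDA-MB-231, a human triple-negative breast cancer cell line, and from the extracellular vesicles (EVs) in its medium, with 2 libraries in each of 6 groups. The RAB27A knockdown line was transduced with a lentiviral short hairpin RNA against RAB27A, a small GTPase that docks vesicle-bearing compartments at the plasma membrane. The miR-122 knockout line was edited at the miR-122 gene with CRISPR-Cas9 and 2 guide RNAs, and the control line carried the empty short hairpin vector. Each line is a single line, and no Cas9-only control is among the groups, so a difference between lines and an effect of the knockdown or knockout cannot be told apart. EVs were pelleted by ultracentrifugation from medium without serum, conditioned for 24 h, and the cells that made them were harvested alongside. The labels' protocols also list 10% fetal bovine serum and 1% bovine serum albumin, the same for every group.

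Total counts were 3159478 and 3140610 in RAB27A knockdown cells, 10169004 and 9836680 in miR-122 knockout cells, and 11840597 and 11066570 in control cells. In EVs they were 164656 and 170366 for the knockdown, 3754673 and 3166760 for the knockout, and 2387336 and 2596391 for the control. Levels are given as CPM (counts divided by the library's total and multiplied by 1000000), and 1 count was worth 6.07 and 5.87 CPM in the shallow knockdown EV libraries. The edited miR-122-5p had 0 counts in both knockout cell libraries, against 5 and 4 in control cells, and 4 and 3 counts in knockout EVs, against 790 and 651 in control EVs. The unedited knockdown line differed from the control line as well. It had 39 and 40 counts in cells (12.3 and 12.7 CPM, against 0.422 and 0.361 CPM in control cells). In knockdown EVs miR-122-5p had 7 and 5 counts (42.5 and 29.3 CPM, against 331 and 251 CPM in control EVs). RAB27A itself is not read by these libraries. As a check of the cell line, 5 miRNAs known to be abundant in basal breast cancer lines (miR-100-5p, miR-21-5p, miR-221-3p, miR-222-3p and miR-125b-5p) were detected in every group, with summed levels of 457621 to 708693 CPM. Between replicates, log2 CPM values of the miRNAs with at least 20 counts correlated at 0.989 to 0.9973, and the knockout cell libraries differed most from each other (chi-square per degree of freedom 211, against 8.75 to 31.8 in the other groups). The labels number the replicates but name no separate cultures, and the spread on which the p-values rest may therefore be technical. Each library pools many cells, so fewer cells with a miRNA and less of it per cell cannot be told apart.

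A miRNA gene is transcribed as part of a longer primary transcript, from which Drosha cuts a hairpin and Dicer then releases the paired 5p and 3p arms. As a rule 1 arm is kept in an Argonaute protein and guides it to messenger RNAs that pair with the seed, bases 2 to 8 of the arm, while the other arm is degraded. A close copy of the cluster on chromosome 19 encodes miR-23a, miR-27a and miR-24-2. The miR-23 family is known to repress glutaminase, miR-27 to repress adipogenesis and the nuclear receptor PPARG, and miR-24 to repress cell cycle genes such as E2F2 and MYC.

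The 3 hairpins lie on the plus strand of chromosome 9 within 881 bases (GRCh38.p14, RefSeq): MIR23B at chr9:95085208-95085304, MIR27B at chr9:95085445-95085541, which is 140 bases further on, and MIR24-1 at chr9:95086021-95086088, after another 479 bases. They are inside the gene C9orf3, which RefSeq calls AOPEP, an aminopeptidase gene transcribed on the same strand (chr9:94726701-95087218, GENCODE v29). Of its 22 annotated transcripts 7 span the cluster. MIR23B and MIR27B are intronic in all 7, and MIR24-1 is intronic in 6 and overlaps an exon in 1. The hairpins are shown because the results turn on which arm of each was found; capitals mark the 2 mature arms, 5p first.
MIR23B: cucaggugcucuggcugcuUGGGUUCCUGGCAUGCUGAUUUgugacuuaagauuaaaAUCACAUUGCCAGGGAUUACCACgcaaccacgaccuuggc
MIR27B: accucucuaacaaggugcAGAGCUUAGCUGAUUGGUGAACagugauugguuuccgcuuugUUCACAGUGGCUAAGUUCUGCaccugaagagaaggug
MIR24-1: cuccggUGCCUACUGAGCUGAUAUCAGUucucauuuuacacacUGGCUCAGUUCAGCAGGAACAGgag

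The mature sequences are shown with the seed in capitals, the 5 members first and then the arms of the chromosome 19 copy that share their seeds, because the comparison of the 2 copies rests on how far their counts can be kept apart.
hsa-miR-23b-3p: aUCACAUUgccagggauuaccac
hsa-miR-23b-5p: uGGGUUCCuggcaugcugauuu
hsa-miR-27b-3p: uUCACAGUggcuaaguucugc
hsa-miR-27b-5p: aGAGCUUAgcugauuggugaac
hsa-miR-24-1-5p: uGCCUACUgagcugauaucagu
hsa-miR-23a-3p: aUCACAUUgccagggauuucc
hsa-miR-23a-5p: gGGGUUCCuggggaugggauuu
hsa-miR-27a-3p: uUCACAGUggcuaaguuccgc
hsa-miR-24-2-5p: uGCCUACUgagcugaaacacag

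Counted from 1 at the 5′ end, with the chromosome 19 base first, miR-27b-3p differs from miR-27a-3p by C19U alone. miR-23b-3p differs from miR-23a-3p by U19A and is longer, at 23 against 21 bases. The 5p arms are farther apart, with 7 differences for miR-23b-5p, 8 for miR-27b-5p and 6 for miR-24-1-5p. miR-27b-5p alone of the 5 has a seed that its counterpart on chromosome 19 lacks. Counts of the 3p pairs are uncertain to the extent that reads were split between the copies. Reads ending before the differing base fit both copies. Longer reads do so too if mismatches were allowed, a setting that is not given. The 3p arm of MIR24-1 is miR-24-3p, which MIR24-2 on chromosome 19 also encodes, so its counts belong to both copies and it was not taken as a member.

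The 3p arms of miR-27b and miR-23b held most counts of the cluster, and miR-27b-3p was its most abundant member in every library, between the 5th and the 18th most abundant of all miRNAs. Ordered by level, miR-27b-3p averaged 36293 CPM ± 2539 in knockout EVs, 32029 ± 478 in control EVs, 28553 ± 113 in control cells, 11862 ± 242 in knockdown EVs, 8685 ± 307 in knockdown cells and 7459 ± 1224 in knockout cells (SD, n = 2 each). miR-23b-3p averaged 9966 CPM ± 254 in knockout EVs, 6672 ± 328 in control EVs, 6567 ± 197 in control cells, 3649 ± 702 in knockout cells, 3031 ± 360 in knockdown EVs and 1747 ± 10.1 in knockdown cells. Neighbours that differed by less than the larger SD were control EVs and control cells, and knockout cells and knockdown EVs, both for miR-23b-3p. miR-27b-5p was led by another group, with 1818 CPM ± 98.5 in knockout cells, 1216 ± 21.4 in control cells, 762 ± 68.4 in knockout EVs, 588 ± 25.6 in control EVs, 109 ± 10.5 in knockdown cells and 83.1 ± 40.2 in knockdown EVs. miR-23b-5p had that order of groups at a lower level, between 112 ± 9.13 CPM in knockout cells and 8.91 ± 4.01 CPM in knockdown EVs. miR-24-1-5p had the lowest mean of the 5 in each group: 31.7 CPM ± 2.58 in knockout EVs, 31.5 ± 0.272 in control cells, 25 ± 2.14 in knockout cells, 22 ± 3.29 in control EVs, 6.19 ± 1.99 in knockdown cells and 5.97 ± 0.144 in knockdown EVs. Its neighbours in that order differed by less than the larger SD in 3 pairs, knockout EVs and control cells, knockout cells and control EVs, and knockdown cells and EVs, and the knockdown cells and EVs did so for both other 5p arms too. The knockdown line held the lowest mean of each member in its fraction, except for miR-27b-3p in cells. The 5 members together made up 10556 CPM ± 306 in knockdown cells, 13062 ± 1838 in knockout cells and 36444 ± 287 in control cells, and in EVs 14991 ± 74.3 for the knockdown, 47093 ± 2717 for the knockout and 39341 ± 823 for the control (SD, n = 2 each).

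**Figure D1:**
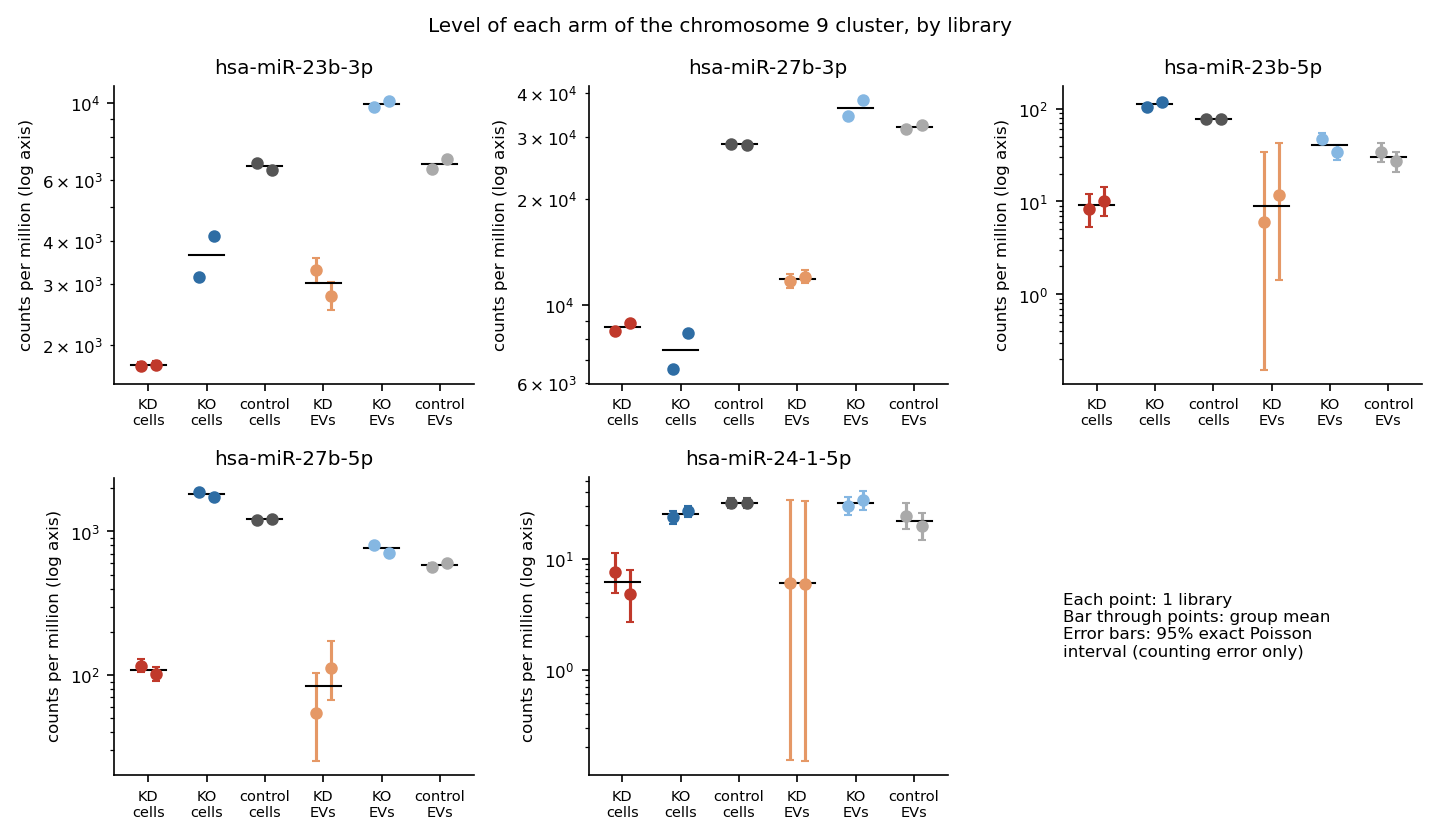
Level of each member in CPM on a log axis, for RAB27A knockdown (KD), miR-122 knockout (KO) and control cells and EVs. Points are the 2 libraries of a group, short lines their mean, and error bars 95% exact Poisson intervals, which cover counting error only. Knockdown cells stand below control cells in all 5 panels, with miR-27b-3p at 8468 and 8902 CPM against 28633 and 28473 CPM.

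In RAB27A knockdown cells all 5 members were lower than in control cells, and the 5p arms of miR-23b and miR-27b were lower by more than their 3p arms. miR-27b-5p had 116 and 101 CPM in knockdown cells, against 1201 and 1231 CPM in control cells, an 11.1-fold lower level (log2 fold change −3.47, SE 0.15, adjusted p = 7.25e-14 by edgeR's quasi-likelihood test with Benjamini-Hochberg adjustment). miR-23b-5p had 8.23 and 10.2 CPM in knockdown cells, against 76.3 and 78.1 CPM in control cells (−3.05, SE 0.20, edgeR adjusted p = 4.96e-11). These are 26 and 32 counts against 903 and 864.

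miR-24-1-5p, the arm that marks this copy of miR-24, had 7.6 and 4.78 CPM in knockdown cells, against 31.3 and 31.7 CPM in control cells (log2 fold change −2.33, SE 0.25, edgeR adjusted p = 9.22e-08). The knockdown values are 24 and 15 counts. miR-23b-3p had 1740 and 1754 CPM in knockdown cells, against 6706 and 6428 CPM in control cells (−1.90, SE 0.11, edgeR adjusted p = 1.48e-11). miR-27b-3p had 8468 and 8902 CPM in knockdown cells, against 28633 and 28473 CPM in control cells (−1.70, SE 0.11, edgeR adjusted p = 4.53e-11). No library of either group overlapped the other for any member. The share of all miRNAs tested that separate in this way was not counted.

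Of all 613 miRNAs tested in cells, 53.8% passed in this comparison and 29.5% were lower in knockdown cells, against 5 of 5 members. Their median log2 fold change was −2.33, against −0.11 over all miRNAs tested. The choice of library scaling moved the log2 fold changes of all miRNAs by a median of at most 0.13, and the 5 calls were the same under every alternative tried. With a library left out, miR-24-1-5p ranged from −2.70 to −2.01 and the others moved less.

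The copy on chromosome 19 went the other way in the same cells. Of its 5 arms 4 rose and none fell: miR-27a-3p by a log2 fold change of 1.05, miR-24-2-5p by 0.98, miR-23a-3p by 0.63 and miR-27a-5p by 0.62, while miR-23a-5p stood at 0.002 (adjusted p = 0.994, edgeR's quasi-likelihood test). The background of higher calls was 24.3%. miR-24-3p, which both copies give, had 18115 and 18386 CPM in knockdown cells, against 14074 and 13561 CPM in control cells (0.42, edgeR adjusted p = 0.00246). Of the miR-24 5p counts that tell the copies apart, miR-24-1-5p held 1.88% and 1.16% in knockdown cells, against 12.9% and 13.6% in control cells. The antisense miR-3074, whose hairpin overlaps MIR24-1 on the minus strand, was near 2 CPM for each arm in these cells, and its arms did not pass (miR-3074-5p 0.11, adjusted p = 0.868, and miR-3074-3p −0.004, adjusted p = 0.995, both by edgeR).

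**Figure D2:**
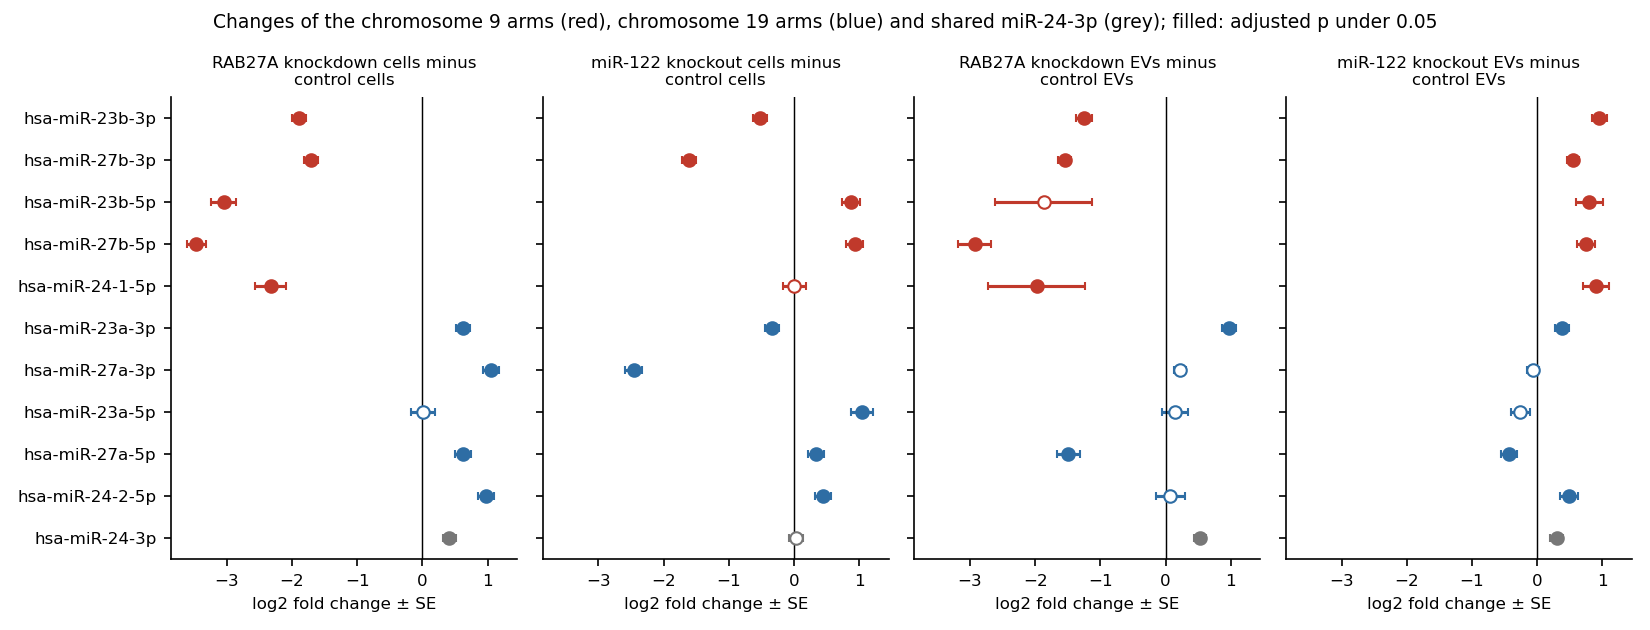
Log2 fold change and its SE (horizontal axis) of the 5 members in red, the 5 arms of the chromosome 19 copy in blue and the shared miR-24-3p in grey, for knockdown and knockout minus control, in cells and in EVs. Filled points passed an adjusted p of 0.05 by edgeR. In knockdown cells the members stand at −3.47 to −1.70 and the chromosome 19 arms at 0.002 to 1.05, and in knockout cells the 3p and 5p arms of miR-23 and miR-27 of both copies stand on opposite sides of 0 after TMM scaling.

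In miR-122 knockout cells the cluster split by arm: both 3p arms were lower than in control cells and both 5p arms of the same hairpins were higher. miR-27b-3p had 6593 and 8324 CPM in knockout cells, against 28633 and 28473 CPM in control cells (log2 fold change −1.61, SE 0.11, edgeR adjusted p = 8.91e-11). Its partner miR-27b-5p had 1888 and 1748 CPM in knockout cells, against 1201 and 1231 CPM in control cells (0.93, SE 0.13, edgeR adjusted p = 3.39e-06). The arms of this hairpin thus changed in opposite directions.

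miR-23b-3p had 3153 and 4146 CPM in knockout cells, against 6706 and 6428 CPM in control cells (log2 fold change −0.52, SE 0.11, edgeR adjusted p = 3e-04). miR-23b-5p had 105 and 118 CPM in knockout cells, against 76.3 and 78.1 CPM in control cells (0.87, SE 0.14, edgeR adjusted p = 2.18e-05). miR-24-1-5p had 23.5 and 26.5 CPM in knockout cells, against 31.3 and 31.7 CPM in control cells, and did not pass (0.005 after TMM scaling, SE 0.18, edgeR adjusted p = 0.986). Its CPM values did not overlap between the groups, but the share of all miRNAs tested that separate in this way was not counted. Its change was −0.33 when libraries were scaled by total counts (edgeR adjusted p = 0.142).

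In all 4 of 5 members passed, 2 higher and 2 lower, where 62.3% of all miRNAs tested passed, 27.7% higher and 34.6% lower. The 4 of 5 are thus not far from the background of this comparison. Total counts instead of TMM factors moved the log2 fold changes of all miRNAs by a median of −0.34 in this comparison, and the 4 calls kept their direction and passed (miR-27b-3p −1.94, miR-23b-3p −0.85, miR-27b-5p 0.58, miR-23b-5p 0.53). Across 535 miRNAs with a sequence, the log2 fold changes rose with GC content (Spearman rho 0.449, a correlation across miRNAs, which are not independent). The members have 45.5% to 50% GC, and after a correction for that trend they stood at −1.49 for miR-27b-3p, −0.42 for miR-23b-3p, 1.15 for miR-27b-5p and 0.86 for miR-23b-5p, again all past the threshold.

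After TMM scaling the chromosome 19 copy showed a like division in knockout cells. miR-27a-3p had 961 and 1470 CPM there, against 8326 and 8365 CPM in control cells (log2 fold change −2.46, SE 0.13, edgeR adjusted p = 1.22e-12), and miR-23a-3p fell by 0.34. miR-23a-5p rose by 1.04. miR-24-2-5p (0.45) and miR-27a-5p (0.34) passed after TMM scaling, but their CPM overlapped. miR-24-2-5p had 208 and 238 CPM in knockout cells against 212 and 201 CPM in control cells. Its means before TMM scaling were 223 CPM ± 21.6 and 207 ± 8.03 (SD, n = 2 each), so the size of its change rests on the scaling. miR-27a-5p had 556 and 561 CPM in knockout cells against 538 and 580 CPM in control cells, so its direction rests on the scaling. GC content on chromosome 19 was 59.1% for miR-23a-5p, 54.5% for miR-27a-5p and 50% for miR-24-2-5p. It was 52.4% for miR-27a-3p and 47.6% for miR-23a-3p. Values after the GC correction are not given for these arms. The part of the GC trend in this division was not tested. The knockdown and knockout comparisons share the control libraries, so their values are given side by side and not correlated.

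Set against each other, knockdown cells were lower than knockout cells in 4 of 5 members, where 64.4% of miRNAs passed and 30.7% were lower. The gap was widest for the 5p arms, with log2 fold changes of −4.40 for miR-27b-5p (SE 0.15, edgeR adjusted p = 1.55e-15) and −3.92 for miR-23b-5p (SE 0.19, edgeR adjusted p = 4.41e-13). miR-24-1-5p stood at −2.34 and miR-23b-3p at −1.38. miR-27b-3p, which was low in both lines, stood at −0.10 (SE 0.11, edgeR adjusted p = 0.413) and at 0.22 with total counts (adjusted p = 0.107), so its direction is not settled.

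Listed miRNAs of other cell types also differed between the cells of the 3 lines. The 5 epithelial miRNAs summed to 322 to 330 CPM in knockdown cells and 129 to 142 CPM in knockout cells, against 157 to 163 CPM in control cells. By edgeR, 3 of these 5 were higher and 1 lower in knockdown cells, and 1 higher and 1 lower in knockout cells. The 2 of endothelium, both arms of miR-126, summed to 196 to 211 CPM in knockdown cells and 22.3 to 24.5 CPM in knockout cells, against 110 to 113 CPM in control cells. The 8 of blood cells and serum summed to 110 to 112 CPM in knockdown cells and 163 to 168 CPM in knockout cells, against 269 to 285 CPM in control cells. miR-223-3p was at 0 in all of these libraries. Only 3 of the 8 passed the filter on low counts. By edgeR, 1 of the 3 was lower in knockdown cells and 3 were lower in knockout cells than in control cells. Against knockout cells, 2 of the 3 were higher and 1 lower in knockdown cells, unlike the sums. The 8 of stroma and smooth muscle summed to 9.74 to 18.2 CPM over the cell libraries, with miR-143-5p at 0 in each. Their part in the results for the members was not tested.

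The ratio of the 2 arms of a hairpin needs no scaling between libraries, since both counts come from 1 library. The 5p arm made up 1.35% and 1.12% of the miR-27b counts in knockdown cells and 22.3% and 17.4% in knockout cells, against 4.02% and 4.14% in control cells. For miR-23b it made up 0.471% and 0.578% in knockdown cells and 3.23% and 2.77% in knockout cells, against 1.12% and 1.2% in control cells. The groups do not overlap in either hairpin, and neither do the 95% exact Clopper-Pearson intervals of their libraries. The share of all hairpins that separate in this way was not counted.

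In knockdown cells the 5p to 3p ratio was 3.4-fold lower for miR-27b (log2 change −1.77, SE 0.16, adjusted p = 1.86e-16) and 2.2-fold lower for miR-23b (−1.14, SE 0.20, adjusted p = 4.06e-06), by limma on the log2 ratio with 0.5 added to each count. Both hairpins thus passed, where 17.8% of 135 hairpins did and 6.67% were lower. miR-27b had the 2nd lowest change of the 135 and miR-23b the 6th lowest. The hairpins of the chromosome 19 copy were lower by less, with −0.63 for miR-23a (limma adjusted p = 0.00833) and −0.43 for miR-27a (limma adjusted p = 0.0489).

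In knockout cells the ratio was 5.76-fold higher for miR-27b (log2 change 2.53, SE 0.16, limma adjusted p = 7.53e-26) and 2.62-fold higher for miR-23b (1.39, SE 0.20, limma adjusted p = 2.71e-09). Here 61.5% of the hairpins passed, 34.1% higher and 27.4% lower, so a shift between arms was common in this line. miR-27a, at 2.81, and miR-27b had the 6th and 7th highest changes of the 135 hairpins. miR-23a stood at 1.37, close to miR-23b.

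**Figure D3:**
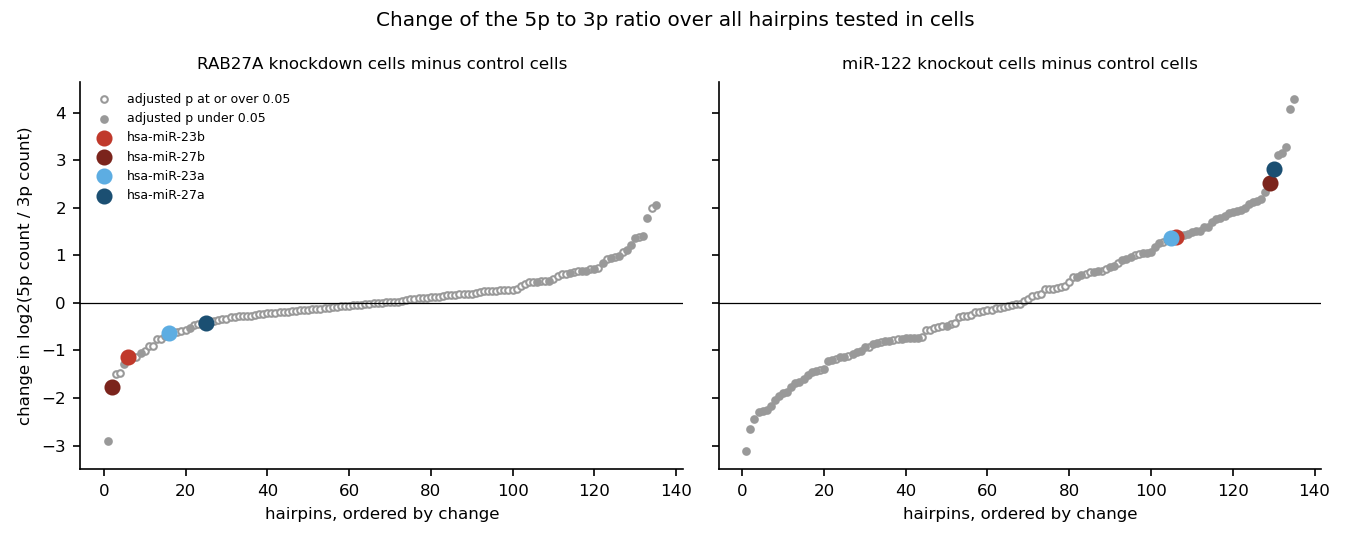
Change of log2(5p count / 3p count) in each of 135 hairpins tested in cells, ordered along the horizontal axis, for knockdown minus control on the left and knockout minus control on the right; filled points passed an adjusted p of 0.05 by limma. miR-27b is the 2nd lowest on the left, at −1.77, and among the highest on the right, at 2.53, beside miR-27a.

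In RAB27A knockdown EVs the 3 members with more than 3 counts in every library, miR-27b-3p, miR-23b-3p and miR-27b-5p, were lower than in control EVs, where 46.3% of 488 miRNAs passed and 27.5% were lower. miR-27b-3p had 11691 and 12033 CPM in knockdown EVs, against 31691 and 32367 CPM in control EVs (log2 fold change −1.55, SE 0.10, edgeR adjusted p = 6.03e-08). miR-23b-3p had 3286 and 2776 CPM in knockdown EVs, against 6440 and 6903 CPM in control EVs (−1.25, SE 0.12, edgeR adjusted p = 2.07e-06). miR-27b-5p had 54.7 and 112 CPM in knockdown EVs, from 9 and 19 counts, against 570 and 606 CPM in control EVs (−2.93, SE 0.25, edgeR adjusted p = 1.02e-06).

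The rarer arms were under the floor of 3 counts in each of these shallow libraries, so their tests are given as a description. miR-24-1-5p had 1 and 1 counts in knockdown EVs, against 58 and 51 in control EVs, a 3.66-fold lower level with a 95% counting interval of 0.99 to 30.6. Its edgeR call (−1.98, adjusted p = 0.0446) was lost with total counts, DESeq2, a GC correction or a fit limited to the 4 libraries at hand, and without knockdown EV replicate 1 or 2 or knockout EV replicate 2 (adjusted p = 0.158, 0.111 and 0.0523 by edgeR). miR-23b-5p had 1 and 2 counts in knockdown EVs, against 81 and 70 in control EVs, a 3.38-fold lower level (counting interval 1.14 to 16.6), and did not pass (−1.87, edgeR adjusted p = 0.056). It passed with RLE size factors or without the filter (edgeR adjusted p = 0.0431 and 0.0102), and without knockout EV replicate 1 or 2 (0.0224 and 0.0323).

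Of the chromosome 19 arms in knockdown EVs, miR-23a-3p rose by a log2 fold change of 0.97 (edgeR adjusted p = 8.99e-06), where 18.9% of miRNAs were higher, and miR-27a-5p fell by 1.49. The other 3 did not pass, at 0.23 for miR-27a-3p, 0.15 for miR-23a-5p and 0.07 for miR-24-2-5p. miR-27b-5p made up 0.465% and 0.918% of its hairpin's counts in knockdown EVs, against 1.77% and 1.84% in control EVs. The ratio of the miR-27b arms was lower (log2 change −1.42, SE 0.32, limma adjusted p = 0.0233; 33.3% of 99 hairpins passed), a call lost in a fit on the 4 libraries alone (adjusted p = 0.0741) and without either control EV or either knockout EV library (adjusted p = 0.0774 to 0.183). It stood at −0.95 without knockdown EV replicate 1 and −1.90 without replicate 2. The miR-23b ratio did not pass (−0.26, limma adjusted p = 0.677), and stood at 0.21 and −0.72 without those libraries. With 1 and 2 counts of miR-23b-5p in knockdown EVs, the hairpin reached the mean of 10 counts only through the other EV groups. The 0.5 added to each count weighs heavily on this ratio, which changed sign with a pseudocount of 1. Its test therefore cannot decide whether the miR-23b arms shifted in knockdown EVs. The ratios of the chromosome 19 hairpins were lower than in control EVs. The miR-27a ratio fell by more than that of miR-27b (log2 change −1.71, SE 0.16, limma adjusted p = 0.00122). That of miR-23a stood at −0.80 (SE 0.21, limma adjusted p = 0.0302).

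Knockout EVs, unlike knockdown EVs, held more of the cluster than control EVs in scaled levels: 5 of 5 members were higher, where 41.2% of miRNAs passed and 18.9% were higher. miR-23b-3p had 9786 and 10145 CPM in knockout EVs, against 6440 and 6903 CPM in control EVs (log2 fold change 0.96, SE 0.11, edgeR adjusted p = 1.2e-05). miR-24-1-5p had 29.8 and 33.5 CPM in knockout EVs, against 24.3 and 19.6 CPM in control EVs (0.90, SE 0.19, edgeR adjusted p = 0.00208). miR-23b-5p had 47.1 and 33.8 CPM in knockout EVs, against 33.9 and 27 CPM in control EVs, so that the groups overlap (0.80, SE 0.21, edgeR adjusted p = 0.00825). miR-27b-5p, with 810 and 714 against 570 and 606 CPM, stood at 0.75 (SE 0.14, edgeR adjusted p = 0.000698), and miR-27b-3p, with 34498 and 38088 against 31691 and 32367 CPM, at 0.56 (SE 0.09, edgeR adjusted p = 0.000298).

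The number of members called depended on the scaling. Total counts moved the log2 fold changes of all miRNAs by a median of −0.38 in this comparison, and 3 of 5 members then passed: miR-23b-3p at 0.58, miR-24-1-5p at 0.53 and miR-27b-5p at 0.37, but not miR-23b-5p at 0.42 (edgeR adjusted p = 0.107) or miR-27b-3p at 0.18 (edgeR adjusted p = 0.139). No member changed direction. DESeq2 also called 3, without miR-23b-5p (adjusted p = 0.129) and miR-24-1-5p (0.051). The miR-23b-5p call was lost without knockout EV replicate 1 or control EV replicate 2 (edgeR adjusted p = 0.129 and 0.177), the miR-27b-5p call without control EV replicate 1 or 2 (0.0656 and 0.0503) and the miR-27b-3p call without control EV replicate 1 (0.0541).

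Of the chromosome 19 arms in knockout EVs, miR-24-2-5p stood at 0.49 and miR-23a-3p at 0.38, both past the threshold, although miR-23a-3p averaged 7621 CPM ± 340 in knockout EVs and 7625 ± 315 in control EVs (SD, n = 2 each) before TMM scaling. miR-27a-5p fell by 0.43, and miR-23a-5p (−0.26) and miR-27a-3p (−0.07) did not pass. Neither arm ratio of the cluster passed in knockout EVs, where miR-27b stood at 0.19 (SE 0.32, limma adjusted p = 0.845) and miR-23b at −0.18 (SE 0.41, limma adjusted p = 0.946). limma called 0 of 99 hairpins there, with 15 at an unadjusted p under 0.05, and the fit on the 4 libraries alone called 19. The 5p share of miR-27b was 2.3% and 1.84% in knockout EVs, against 1.77% and 1.84% in control EVs.

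Between the EVs of the 2 altered lines, knockdown EVs were lower than knockout EVs in the 3 more abundant members, where 40.4% of miRNAs passed and 22.7% were lower. The log2 fold changes were −3.68 for miR-27b-5p, −2.21 for miR-23b-3p and −2.11 for miR-27b-3p. The 2 rare arms, at 1 or 2 counts in each knockdown EV library, stood at −2.88 for miR-24-1-5p and −2.67 for miR-23b-5p. In counts, miR-24-1-5p was 5.28-fold lower (95% counting interval 1.44 to 43.8) and miR-23b-5p 4.58-fold lower (1.55 to 22.4). The miR-23b-5p call was lost without knockdown EV replicate 1 (edgeR adjusted p = 0.0924), and both rare arms fell under the filter once the libraries were thinned to the shallowest.

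The comparisons stand beside differences in miRNAs of other cell types, which are large in EVs. The 8 listed miRNAs of blood cells and serum summed to 170 to 252 CPM in knockdown EVs and 147 to 217 CPM in knockout EVs, against 9867 to 11503 CPM in control EVs. The 8 of stroma and smooth muscle summed to 112 to 115 CPM in knockdown EVs and 28.7 to 43.9 CPM in knockout EVs, against 3378 to 3497 CPM in control EVs. The 2 of endothelium summed to 231 to 276 CPM and 129 to 136 CPM, against 2648 to 2966 CPM. In knockdown EVs miR-144-5p, miR-223-3p and miR-150-5p were at 0, and so were 6 of the 8 stroma miRNAs. The other EV groups had no listed miRNA at 0. In the shallow knockdown EV libraries 1 count was worth 6.07 and 5.87 CPM, so 0 counts there can also come from a low level. The 5 epithelial miRNAs, those of the miR-200 family, ran the other way, at 417 to 425 CPM in knockdown EVs and 322 to 324 CPM in knockout EVs, against 179 to 201 CPM in control EVs. Their part in the results for the members was not tested.

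**Figure D4:**
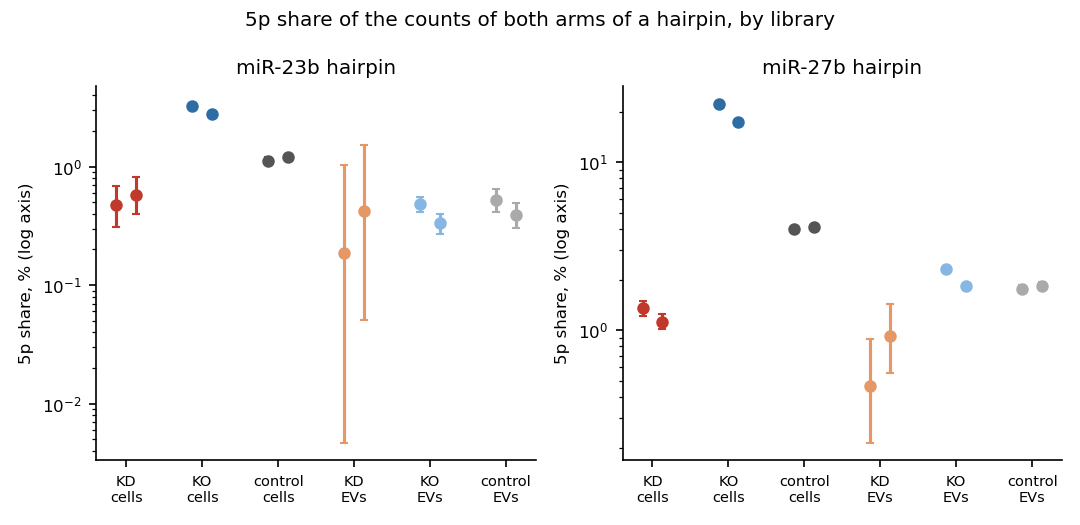
Share of the 5p arm among the counts of both arms of the miR-23b and miR-27b hairpins, in percent on a log axis. Points are the 2 libraries of each group, with 95% exact Clopper-Pearson intervals. Knockout cells stand highest in both panels, at 22.3% and 17.4% for miR-27b. Knockdown EVs are lowest for miR-27b, at 0.465% and 0.918%, while for miR-23b the 3 EV groups overlap.

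Within a line, EVs were set against the cells that released them, on 574 miRNAs in all 12 libraries. In control EVs the 5p arms of the cluster were lower than in control cells and its 3p arms did not pass. miR-23b-5p stood at a log2 fold change of −1.48 (SE 0.18, edgeR adjusted p = 7.93e-10), miR-27b-5p at −1.19 (SE 0.13, edgeR adjusted p = 1.54e-11) and miR-24-1-5p at −0.66 (SE 0.21, edgeR adjusted p = 0.00633), a call lost without control EV replicate 2 (−0.52, adjusted p = 0.14). miR-27b-3p stood at 0.03 (adjusted p = 0.863) and miR-23b-3p at −0.12 (adjusted p = 0.417), and both turned sign with some alternatives. Without the filter both were lower and passed (−0.35, edgeR adjusted p = 0.048, and −0.50, edgeR adjusted p = 0.00263). After thinning to the shallowest library miR-27b-5p alone passed, with miR-23b-5p at −1.17 (edgeR adjusted p = 0.0914) and miR-24-1-5p under the filter. In this line 53.7% of all miRNAs passed, 30.8% higher and 22.8% lower in EVs. On chromosome 19 the arms went otherwise, with miR-23a-5p (1.75) and miR-27a-3p (0.69) higher in EVs and miR-24-2-5p (−0.74) lower. miR-27a-5p (0.21) and miR-23a-3p (0.03) did not pass by edgeR.

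In the knockout line 4 of 5 members passed, 2 higher and 2 lower in EVs, where 59.1% of miRNAs did, 33.3% higher and 25.8% lower. miR-27b-3p was higher in EVs, at 34498 and 38088 CPM in knockout EVs against 6593 and 8324 CPM in knockout cells (log2 fold change 2.09, SE 0.11, edgeR adjusted p = 5.15e-22). miR-23b-3p was higher as well, at 9786 and 10145 CPM in EVs against 3153 and 4146 CPM in cells (1.25, SE 0.12, edgeR adjusted p = 1.12e-13). miR-23b-5p (−1.66, edgeR adjusted p = 2.54e-12) and miR-27b-5p (−1.47, edgeR adjusted p = 1.52e-14) were lower in EVs. miR-24-1-5p did not pass (0.13, edgeR adjusted p = 0.585). Among the chromosome 19 arms, miR-27a-3p (2.97), miR-23a-3p (0.64) and miR-23a-5p (0.345) were higher in EVs by edgeR. miR-24-2-5p (−0.80) and miR-27a-5p (−0.665) were lower.

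In the knockdown line 1 of 5 members passed, where 19.3% of miRNAs did, 7.32% higher and 12% lower in EVs. It was miR-27b-5p (log2 fold change −0.86, SE 0.27, edgeR adjusted p = 0.0175), which stood at −1.63 without knockdown EV replicate 2. The call was lost without knockdown EV replicate 1 (−0.63, adjusted p = 0.215) and with RLE size factors, total counts, DESeq2, the GC correction or thinning (−0.75 to −0.38). miR-23b-3p stood at 0.32 (adjusted p = 0.0565) and passed with total counts (0.80), RLE size factors or DESeq2 (0.43 for each). miR-27b-3p (−0.03, adjusted p = 0.951), miR-23b-5p (−0.51, adjusted p = 0.75) and miR-24-1-5p (−0.53, adjusted p = 0.821) did not pass by edgeR, the rare arms with SEs of 0.78 and 0.96. With total counts the log2 fold changes of all miRNAs moved by a median of 0.47, and their median was 0.19, against −0.105 with TMM factors. The direction of miR-27b-3p depended on the scaling (0.45 with total counts, edgeR adjusted p = 0.00321). After TMM scaling miR-23a-5p of the chromosome 19 copy was higher in EVs (1.69). miR-27a-5p (−2.11), miR-24-2-5p (−1.85) and miR-27a-3p (−0.35) were lower, and miR-23a-3p (0.17) did not pass by edgeR.

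The difference between EVs and cells was then compared between lines as an interaction. For the knockout line it exceeded that of the control line by 2.06 for miR-27b-3p (SE 0.16, edgeR adjusted p = 3.3e-16) and by 1.37 for miR-23b-3p (SE 0.16, edgeR adjusted p = 3.81e-10), both on the log2 scale and under every alternative tried. For miR-24-1-5p it was 0.80 (SE 0.29, edgeR adjusted p = 0.0184), which was lost with RLE size factors, DESeq2, no filter or the GC correction and without control EV replicate 2 or knockout EV replicate 2 (edgeR adjusted p = 0.105 and 0.0839). Both 5p arms did not pass, at −0.28 for miR-27b-5p (adjusted p = 0.205, and −0.52 with adjusted p = 0.00925 after the GC correction) and −0.18 for miR-23b-5p (adjusted p = 0.634, by edgeR). The background for 3 of 5 members higher was 48.3% passed and 24.9% higher. On chromosome 19 miR-27a-3p stood at 2.29 and miR-23a-3p at 0.61, while miR-23a-5p stood at −1.40 and miR-27a-5p at −0.875, all past the threshold. miR-24-2-5p did not pass (−0.06, edgeR adjusted p = 0.9). The median over all miRNAs tested was −0.144.

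For the knockdown line against the control line 0 of 5 members passed, where 18.6% of all miRNAs did, 4.36% higher and 14.3% lower. Of the 5, 1 had an unadjusted p under 0.05. It was miR-23b-3p (0.44, SE 0.17, edgeR adjusted p = 0.058), which passed with RLE size factors, total counts, no filter, the GC correction or thinned libraries in edgeR and with DESeq2 (0.50 to 0.78), and without knockout cell replicate 2 (0.49) or knockdown EV replicate 2 (0.56). The others stood at 0.97 for miR-23b-5p, 0.33 for miR-27b-5p, 0.14 for miR-24-1-5p and −0.05 for miR-27b-3p (edgeR adjusted p = 0.58 to 1). Knockdown EVs limited the precision for the rare arms, with SEs of 0.92 for miR-23b-5p and 1.06 for miR-24-1-5p. The median over all miRNAs tested was −0.302. Of the chromosome 19 arms 3 passed as lower by edgeR, miR-27a-5p at −2.32, miR-24-2-5p at −1.11 and miR-27a-3p at −1.03. miR-23a-3p (0.14) and miR-23a-5p (−0.06) did not pass.

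The share of each copy among near-identical sequences shows the knockdown line apart from the other 2 in both fractions. Of the counts of miR-27b-3p and miR-27a-3p together, miR-27b-3p held 34.1% and 33.2% in knockdown cells and 87.3% and 85% in knockout cells, against 77.5% and 77.3% in control cells. In EVs it held 38.9% and 38.7% for the knockdown and 76.9% and 77.0% for the knockout, against 68.6% and 68.2% for the control. miR-23b-3p held 14.2% and 14.6% of the miR-23b-3p and miR-23a-3p counts in knockdown cells and 45.8% and 46.4% in knockout cells, against 49.1% and 49.4% in control cells.

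In EVs miR-23b-3p held 16.1% and 15.4% for the knockdown and 57.0% and 56.3% for the knockout, against 45.1% and 48.3% for the control. The shares of the 5p arms, which differ from their counterparts at more bases, took the same order between knockdown and control cells: miR-27b-5p held 11.4% ± 1.34 of the miR-27 5p counts in knockdown cells, against 68.5% ± 0.707 in control cells, and miR-23b-5p 13% ± 3.68 of the miR-23 5p counts, against 54.8% ± 4.31 (SD, n = 2 each). For miR-24-1-5p the knockdown EV shares rest on 1 count in each library, at 4.76% and 3.03%. No test was made on these shares.

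**Figure D5:**
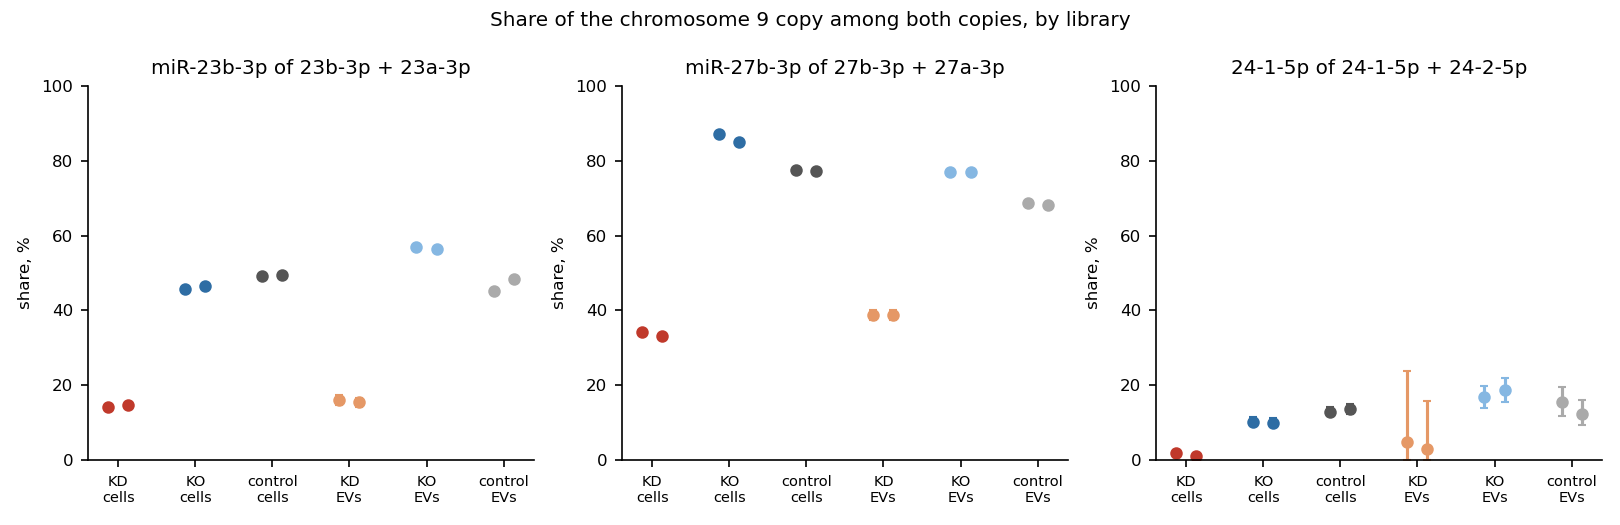
Share of the chromosome 9 copy, in percent, among the counts of both copies of miR-23 3p, miR-27 3p and miR-24 5p arms. Points are the 2 libraries of each group with 95% exact Clopper-Pearson intervals. In each panel the knockdown points stand below the others, with 34.1% and 33.2% of miR-27 3p counts in knockdown cells against 77.5% and 77.3% in control cells. For miR-24 the knockdown EV points rest on 1 count in each library. Their intervals reach 23.8% and 15.8% and overlap those of other groups.

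Summed over both copies, the seeds differed less than the members in knockdown cells. Sequences with the miR-23 3p seed reached 12125 CPM ± 158 in knockdown cells and 7912 ± 1452 in knockout cells, against 13347 ± 461 in control cells. Those with the miR-27 3p seed reached 25832 CPM ± 1434 in knockdown cells and 8675 ± 1583 in knockout cells, against 36898 ± 85.4 in control cells (SD, n = 2 each). In EVs the miR-27 3p seed summed to 30589 CPM ± 719 for the knockdown and 47172 ± 3285 for the knockout, against 46816 ± 903 for the control, and the miR-23 3p seed to 19255 ± 1705 and 17589 ± 595, against 14300 ± 12.6. The miR-23 sums include miR-23c from the X chromosome, a minor part at up to 11.8 CPM in group mean.

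Other miRNAs were ranked by Pearson's r of their mean log2 level over the 6 groups with that of each member, as a description across 6 group means and 561 candidates. miR-625-5p (0.989), miR-10a-3p (0.988) and miR-424-3p (0.978) were most like miR-27b-3p, and miR-3065-5p (0.971), miR-625-5p (0.926) and miR-34c-3p (0.916) most like miR-23b-3p. The 5p arms had other neighbours, with miR-25-5p (0.986), miR-149-5p (0.978) and miR-3681-5p (0.963) for miR-27b-5p and miR-33b-5p (0.964), miR-25-5p (0.96) and miR-33a-5p (0.941) for miR-23b-5p. miR-24-1-5p was closest to miR-1180-3p (0.994), miR-34a-5p (0.974) and miR-149-5p (0.964). With 561 candidates and 6 points, no test goes with these values.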

How the data were processed

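The deposited table holds counts of reads per mature human miRNA; per the submitters' processing notes, reads were handled with cutadapt and Bowtie and the genome build was hg19, with versions, mismatch settings and the treatment of reads shared by several miRNAs not given in the sources used here. Per the labels' protocols, libraries depended on a 5′ monophosphate and each sample was prepared and sequenced on its own. No molecular identifiers are recorded, so intervals cover counting error only, and 3 counts is the floor. No member had the same counts as another miRNA in the table. Sequences and coordinates come from RefSeq on GRCh38.p14, all 5 members were matched by name, and host transcripts come from GENCODE v29.

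The counts were tested with edgeR's quasi-likelihood test (edgeR 4.0.16, R 4.3.3) with TMM factors, filterByExpr and Benjamini-Hochberg adjustment over all miRNAs tested at 0.05. Lines were compared on the 6 libraries of a fraction (613 miRNAs in cells, 488 in EVs), and EVs with cells on all 12 (574). The SE is the size of the log2 fold change over the square root of F. Arm ratios were tested with limma 3.58.1 on log2((5p + 0.5)/(3p + 0.5)) over hairpins whose arms average at least 10 counts. Shares have exact Clopper-Pearson intervals and levels exact Poisson intervals at 95% (SciPy 1.17.1). Alternatives were RLE size factors, total counts, DESeq2 1.42.0, no filter, a replicate block, a GC correction, thinning to the shallowest library, the 4 libraries compared alone, a pseudocount of 1, arms averaging at least 50 counts, and leaving out each library. The tests were tried on simulated data first. The members, lists and tests were chosen with earlier results of these data known. The text names all 5 members in every comparison, the listed related miRNAs and the 3 miRNAs most like each member.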

Additional observations from a re-analysis of the deposited data

Results flagged for a closer look

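In 3 members the difference between EVs and cells was not the same in the miR-122 knockout line and the control line, by the interaction term of edgeR's quasi-likelihood test. The extra EV-minus-cell difference of the knockout line was 2.06 for miR-27b-3p, 1.37 for miR-23b-3p and 0.80 for miR-24-1-5p, on the log2 scale. For miR-27b-3p and miR-23b-3p the 2 libraries of knockout EVs lay above the 2 of knockout cells, while control EVs and control cells were close. For miR-24-1-5p knockout EVs and cells held 29.8 and 33.5 CPM and 23.5 and 26.5 CPM, and control EVs and cells 24.3 and 19.6 CPM and 31.3 and 31.7 CPM. With 2 libraries in each group, no single library could be checked for standing apart from the others of its group.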

How the results depend on the processing

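Of 421 member values under alternatives other than leaving out a library, 364 stayed on their side of the threshold with the same direction, 20 lost their call, 16 gained one and 21 changed sign. Of 528 with a library left out, 482 stayed, 17 lost the call, 9 gained it and 20 changed sign. The 5 calls in RAB27A knockdown cells and the 4 in miR-122 knockout cells were kept throughout. Values that changed sign were not called, except as named, and the cause of the changes was not tested. Numbered replicates did not pair: deviations of same-numbered libraries correlated at −0.226 to 0.205 over 316 miRNAs. In fits with a replicate block, the block left every count of members called as it was, with 5 in knockdown cells; miR-24-1-5p lost its call in knockdown EVs (−1.98, adjusted p = 0.06) and miR-23b-5p gained one (−1.87, adjusted p = 0.0318).

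Members called in knockout minus control EVs went to 3 with total counts, DESeq2 and thinning. In knockdown minus knockout EVs thinning left 3. In EVs minus cells, 2 were called with total counts in the knockdown line, and in the control line 5 without the filter and 1 after thinning. The knockdown interaction had 1 with RLE size factors, total counts, DESeq2, no filter, the GC correction and thinning. In knockdown EVs 0 arm ratios of the cluster were called with the 4 libraries compared.

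Thinning changed the number of all miRNAs called to 142 in knockdown minus control EVs, 61 in knockout minus control EVs, 128 in knockdown minus knockout EVs, 114 and 113 in EVs minus cells of the knockout and control lines, and 61 and 104 in the knockdown and knockout interactions. The 4 libraries alone gave 5 arm ratios in knockdown EVs and 19 in knockout EVs; in knockout EVs a pseudocount of 1 gave 4 and arms averaging 50 counts gave 2.

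Changes of sign were these. miR-24-1-5p in knockout cells stood at −0.33 with total counts, −0.12 without the filter, −0.13 with the 4 libraries and −0.118 to 0.036 with a library left out. miR-27b-3p in knockdown minus knockout cells stood at 0.22 with total counts and −0.048 to 0.011 with a library left out. In EVs minus cells, miR-27b-3p in the knockdown line stood at 0.079 with RLE size factors and DESeq2, 0.45 with total counts (called, adjusted p = 0.00321 by edgeR), 0.25 with the GC correction and 0.27 thinned. In the control line it stood at −0.35 without the filter (called, edgeR adjusted p = 0.048), −0.015 with the GC correction and −0.184 to 0.111 with a library left out; miR-23b-3p there stood at 0.023 with total counts and −0.327 to 0.002. miR-24-1-5p in the knockout line stood at −0.24 without the filter and −0.19 with the GC correction. In the knockdown interaction miR-27b-3p stood at 0.006 with RLE size factors and DESeq2, 0.28 with total counts, 0.29 without the filter, 0.27 with the GC correction and 0.16 thinned; with a library left out miR-24-1-5p ranged from −0.25 to 0.54 and miR-27b-5p from −0.27 to 0.73. In the knockout interaction miR-23b-5p ranged from −0.35 to 0.016. The miR-23b arm ratio stood at 0.072 with a pseudocount of 1 in knockdown EVs, and with a library left out ranged from −0.72 to 0.21 there and from −0.45 to 0.081 in knockout EVs.

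With a library left out, counts of all miRNAs called ranged from 196 to 385 in knockdown cells and from 127 to 205 in knockout EVs. Arm ratios called ranged from 8 to 33 in knockdown cells, 3 to 62 in knockdown EVs and 0 to 21 in knockout EVs. Members called ranged from 3 to 5 in knockout EVs, 0 to 1 in EVs minus cells of the knockdown line, 0 to 1 in the knockdown interaction and 0 to 2 for the arm ratios in knockdown EVs. Scaling by total counts shifted all miRNAs together, and the share of calls that were higher became 32.4% in knockout minus control cells (TMM 44.5%), 63.1% in knockdown minus knockout cells (52.4%), 19.2% in knockout minus control EVs (45.8%), 64.7% in knockdown minus knockout EVs (43.7%), 75.6% in EVs minus cells of the knockdown line (37.8%) and 52.6% in the knockdown interaction (23.4%). Where leaving a library out left a lone library in a group, it was assumed to vary like the others. The depth of knockdown EVs, where 1 count is worth 6.07 and 5.87 CPM, limits the precision of miR-23b-5p and miR-24-1-5p there.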
